A study of Mus musculus with 9 samples.

Results

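The 10 genes described here belong to the sensing of leptin, insulin and cellular energy: the leptin receptor Lepr, the receptors Insr and Igf1r, the adaptors Irs1 and Irs2, the phosphoinositide 3-kinase subunit Pik3r1, the kinase Akt2, the transcription factors Foxo1 and Foxo3, and the deacetylase Sirt1. They were chosen by name, and all 10 are among the 24421 genes listed in the count table. In order to examine them in proximal tubular epithelia, poly(A) RNA was sequenced from tdTomato-positive, DAPI-negative cells sorted from the kidneys of 9 mice, with 3 mice in each of 3 groups. The groups were *db/m* mice (heterozygous for the Leprdb mutation, not diabetic), *db/db* mice (homozygous for it) given vehicle, and *db/db* mice given 1.5 mg/kg/day of dapagliflozin in drinking water for 8 weeks (*db/db*-dapa). The strain was C57BL/6. All 3 groups carried a CreERT2 cassette in the Slc34a1 locus and the R26tdTomato reporter, and received 5 injections of 3 mg of tamoxifen at 8 weeks of age. The label therefore depended on the Slc34a1 promoter, and the injections were shared by controls and diabetic mice alike. Age at harvest and sex are not given in the sources used here. The study asked how dapagliflozin, an inhibitor of the glucose transporter SGLT2, changes gene expression in these cells.

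Insulin and IGF1 bind related tyrosine kinase receptors, which phosphorylate the adaptors IRS1 and IRS2. The adaptors recruit phosphoinositide 3-kinase, its lipid product activates AKT kinases, and AKT phosphorylates FOXO transcription factors, which then leave the nucleus, so that genes such as Igfbp1 and the gluconeogenic enzymes are transcribed less. In the proximal tubule this route is known for restraining gluconeogenesis. Leptin, a hormone of adipose tissue, acts through a separate receptor coupled to JAK kinases. SIRT1 is an NAD-dependent deacetylase that links the redox state of a cell to FOXO proteins and to mitochondrial genes. Most of these steps are changes of phosphorylation or location of a protein, which RNA levels do not measure.

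Total counts were between 2733349 and 9033123 per mouse. The summed level of 12 proximal tubule markers was 12943 to 13893 CPM (counts divided by the library total after TMM scaling, the unit of level used here) in *db/m*, 14248 to 20390 in *db/db* and 16657 to 21104 in *db/db*-dapa mice, and their highest gene was Slc34a1 at a mean of 4493 CPM. Markers of other cells were present too, and 0 of the markers of any list were at 0 in all mice. The 10 distal nephron and collecting duct markers summed to 1227 to 2906 CPM in *db/m*, 989 to 2019 in *db/db* and 895 to 1106 in *db/db*-dapa mice, and the 10 endothelial markers to 85.8 to 212, 102 to 309 and 68.4 to 321. The 10 leukocyte markers summed to 218 to 501, 134 to 377 and 102 to 330 CPM, and the 10 fibroblast and pericyte markers to 22 to 26.5, 10.7 to 23 and 5.66 to 31.5. The 8 podocyte markers reached 289 CPM in *db/db*-dapa replicate 1, against 29.6 to 96.9 in the other 8 mice. A list of 20 dissociation stress genes summed to 13074 to 15862, 9071 to 14461 and 11425 to 17707 CPM, and 3 of the 20 were lower in *db/db* than in *db/m* mice at the threshold used below (0.898% of all genes tested). The part of these cells and genes in the values below was not tested. In such a bulk sample, fewer cells of a type and less RNA per cell cannot be told apart.

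The promoters below show which response elements lie near the start of the adaptor genes, of Sirt1 and of the genes downstream of FOXO factors that differed between groups. A window from 250 bases before to 50 bases after each annotated start was taken from RefSeq's GRCm38.p6, which held 14 start sites for 9 of the 10 genes (all but Insr). Both strands were searched for the FOXO motif TGTTTAC, the CREB motif TGACGTCA, the E-box CACGTG and, chosen after the sequences were seen, the insulin response element TGTTTTG. Capitals mark the matches, and each sequence is written 5′ to 3′ on the strand of its gene. Irs1 is shown at chr1:82291390-82291689 on the minus strand, Irs2 at chr8:11008880-11009179 on the minus strand, Sirt1 at chr10:63338986-63339285 on the minus strand, Igfbp1 at chr11:7197537-7197836 on the plus strand and Txnip at chr3:96557707-96558006 on the plus strand.
Irs1: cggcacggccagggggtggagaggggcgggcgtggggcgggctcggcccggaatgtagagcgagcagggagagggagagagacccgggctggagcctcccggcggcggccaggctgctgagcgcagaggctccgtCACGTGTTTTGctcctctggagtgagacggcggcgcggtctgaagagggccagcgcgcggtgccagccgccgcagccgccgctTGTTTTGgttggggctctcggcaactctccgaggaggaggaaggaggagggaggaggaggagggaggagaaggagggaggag
Irs2: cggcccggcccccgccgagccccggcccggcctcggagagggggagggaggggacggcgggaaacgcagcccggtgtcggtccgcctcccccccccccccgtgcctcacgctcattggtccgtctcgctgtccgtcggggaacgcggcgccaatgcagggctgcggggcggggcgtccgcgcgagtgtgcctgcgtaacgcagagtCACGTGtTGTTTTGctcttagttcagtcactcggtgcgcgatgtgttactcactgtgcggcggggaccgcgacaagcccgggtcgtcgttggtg
Sirt1: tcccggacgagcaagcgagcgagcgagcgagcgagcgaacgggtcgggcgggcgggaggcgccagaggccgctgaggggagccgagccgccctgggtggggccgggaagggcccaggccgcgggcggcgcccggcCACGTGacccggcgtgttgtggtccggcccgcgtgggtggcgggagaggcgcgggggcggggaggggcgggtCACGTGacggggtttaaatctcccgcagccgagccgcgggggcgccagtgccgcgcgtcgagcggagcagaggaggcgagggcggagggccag
Igfbp1: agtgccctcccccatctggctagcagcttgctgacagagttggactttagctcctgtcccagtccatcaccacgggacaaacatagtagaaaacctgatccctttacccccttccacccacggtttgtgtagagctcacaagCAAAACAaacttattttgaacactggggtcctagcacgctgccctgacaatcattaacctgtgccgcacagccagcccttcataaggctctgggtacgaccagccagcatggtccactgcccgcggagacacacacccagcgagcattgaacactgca
Txnip: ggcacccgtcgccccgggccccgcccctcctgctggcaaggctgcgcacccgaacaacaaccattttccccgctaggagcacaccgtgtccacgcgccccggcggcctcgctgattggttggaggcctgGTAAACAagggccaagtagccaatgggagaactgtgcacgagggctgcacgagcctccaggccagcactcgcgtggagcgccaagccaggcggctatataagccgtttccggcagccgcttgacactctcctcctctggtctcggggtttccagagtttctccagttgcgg

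An E-box was found in 3 of the 9 genes: at position -115 from the start in Irs1, at -44 in Irs2, and at both -115 and -43 in Sirt1. Among all 32851 mouse promoters of the same length, 7.15% hold this motif. Counted by gene, 8.09% of 27025 genes hold it in at least 1 promoter. The insulin response element lay at -111 and -32 in Irs1 and at -37 in Irs2, and, on the opposite strand, at -114 of 1 of the start sites of Lepr and at -108 in Igfbp1. It occurs in 6.28% of promoters and, counted by gene, in 7.2% of genes. In both adaptor genes it followed an E-box, and in Irs1 the matches at -115 and -111 overlap. The FOXO motif, searched only as TGTTTAC, was found in none of the 14 windows of the 9 genes, but on the opposite strand at -121 in Txnip (3.65% of promoters). The CREB motif was found in none of the windows (1.79% of promoters). The absence of TGTTTAC does not show that a gene lacks a site for FOXO factors. Of the other FOXO target genes searched, G6pc held the insulin response element at -174, and Pck1 and Pdk4 held none of these motifs. A match is a description of the letters and shows no binding, and these windows are short.

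Leptin receptor RNA was almost undetectable in these cells. Lepr (chromosome 4, 101717404 to 101815352, plus strand, GRCm38) had counts of 0, 0 and 3 in *db/m*, 0, 2 and 1 in *db/db*, and 3.5, 1 and 0 in *db/db*-dapa mice. The summed counts were 3 of 17144203, 3 of 15320131 and 4.5 of 23640455, at or close to the limit of 3 counts below which no level was read, so no fold change is given. At this depth a difference between groups was not detectable. The mutation that defines *db/db* mice lies in this gene and alters its splicing. With so few counts, and with 1 value per gene, Lepr checks neither the genotype labels nor the presence of the mutant transcript. Lep, which encodes the ligand, was listed at 0 in all 9 mice. A limit of this kind covers counting error only.

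The other 9 genes had counts in every mouse. Ranked by level per kilobase of the longest transcript, the mean over 9 mice was 20.3 CPM per kb for Akt2, 17.1 for Igf1r, 11.9 for Sirt1, 10.6 for Insr, 7.64 for Foxo1, 7.42 for Pik3r1, 5.23 for Foxo3, 3.01 for Irs2 and 0.831 for Irs1. Lepr was not ranked, for its low counts. The order of some neighbours was not the same in every mouse. Akt2 lay above Igf1r in 7 of 9 mice, Sirt1 above Insr in 6, and Foxo1 above Pik3r1 in 5. Sirt1 lay above Insr in 3 of 3 *db/m* mice but in 1 of 3 *db/db*-dapa mice. By contrast, Pik3r1 lay above Foxo3 in 9 of 9 mice, Foxo3 above Irs2 in 9 and Irs2 above Irs1 in 8. On this scale the adaptor genes were the lowest of the route from receptor to FOXO factors. Akt2 ranged from 16.8 to 22.4 CPM per kb over the 9 mice, and Igf1r from 9.48 to 29.3.

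**Figure D1:**
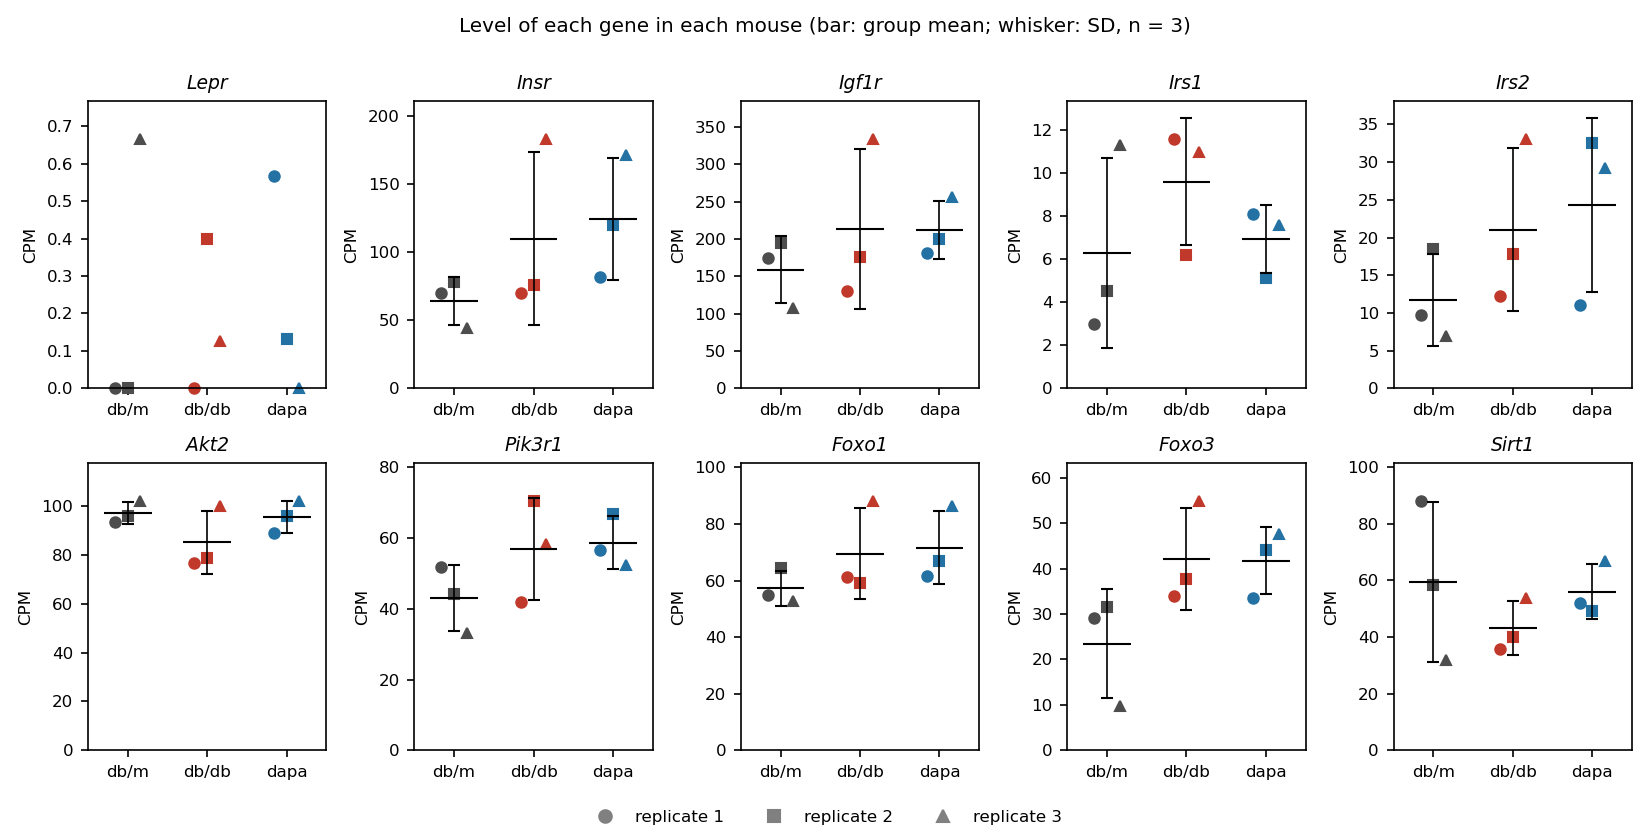
Level of each of the 10 genes in CPM (vertical axis from 0) in each mouse, by group; symbols mark the replicate number, bars the group mean and whiskers the SD (n = 3; none drawn for Lepr). In *db/m* mice, replicate 3 was the lowest for Insr (44.4), Igf1r (108), Foxo3 (9.78) and Sirt1 (31.8), and in *db/db* mice replicate 3 was the highest for the same 4 genes (183, 334, 54.9 and 53.7).

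Mean levels of both receptor genes, both adaptors, Pik3r1 and both FOXO genes were higher in the *db/db* and *db/db*-dapa groups than in *db/m* mice, by up to 2.06-fold (Irs2), and those of Akt2 and Sirt1 were lower. None of these differences passed the threshold adjusted over all genes, although the 95% intervals of Foxo3 in both comparisons and of Insr in *db/db*-dapa against *db/m* mice lay above 0 before adjustment. Those of Igf1r, Irs1 and Foxo1 changed sign in at least 1 comparison when transcript length was taken into account. To compare the groups, edgeR's quasi-likelihood test was run over the 15583 genes at or above 0.3 CPM in at least 2 mice, and all 10 genes passed this filter. At a Benjamini-Hochberg adjusted p under 0.1 over all genes tested, 0 of the 10 genes passed in any of the 3 comparisons. Of all genes tested, 1.7% passed between *db/db* and *db/m* mice, 0% between treated and untreated *db/db* mice, and 1.31% between *db/m* and *db/db*-dapa mice. DESeq2 and limma on log2(CPM + 1) also called 0 of the 10 in each comparison, whereas voom with sample quality weights called 3 in *db/db*-dapa against *db/m* mice (Insr, Irs2 and Foxo3, adjusted p = 0.0261, 0.0369 and 0.0486) and 4883 of all genes. At an unadjusted p under 0.05, 1 of the 10 (Foxo3) passed in *db/db* against *db/m* mice, 0 in treated against untreated *db/db* mice, and 3 (Insr, Irs2 and Foxo3) in *db/db*-dapa against *db/m*, beside 13.7%, 5.19% and 18.2% of all genes tested. The values did not overlap between groups for 1 (Foxo3), 0 and 3 (Insr, Pik3r1 and Foxo3) of the 10, beside 16.4%, 10.2% and 28.1% of all genes, and all of these were higher in the diabetic group (beside 8.28% and 14.4% of all genes in the first and last comparison). These counts rest on at most 3 genes, and nothing is read from them about the 10.

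Among the 9 genes with a fold change, 7 had a log2 fold change above 0 in *db/db* against *db/m* mice (51.6% of all genes tested) and 7 in *db/db*-dapa against *db/m* mice (48.5%), and these were the 7 whose longest transcript exceeds 6000 bases. Of all tested genes over that length, 77.1% and 75.6% lay above 0 in these 2 comparisons. The median log2 fold change of the 9 was 0.43 in *db/db* against *db/m*, 0.04 in *db/db*-dapa against *db/db* and 0.42 in *db/db*-dapa against *db/m* mice, against 0.020, -0.009 and -0.022 over all genes tested. The first and the last of these comparisons share the *db/m* mice. The 12 proximal tubule markers had medians of 0.48, 0.23 and 0.46, with 9, 8 and 11 of the 12 above 0. Among them Slc7a13 was lower than in *db/m* mice, at 0.103-fold in *db/db* and 0.209-fold in *db/db*-dapa mice, without passing the threshold. The part of these markers in the values of the 9 genes was not tested. Across all genes, however, long transcripts moved the same way. The median log2 fold change was 0.32, 0.06 and 0.38 for the 2026 genes with a longest transcript over 6000 bases, and -0.19, -0.14 and -0.34 for the 3762 genes under 2000 bases. Taken per mouse, the median deviation of long genes minus that of short genes was -0.32, -0.07 and -0.56 (log2) in *db/m*, -0.13, -0.19 and 0.56 in *db/db*, and -0.02, 0.32 and 0.41 in *db/db*-dapa mice. It was thus lowest in *db/m* replicate 3 and highest in *db/db* replicate 3. When this dependence on length was removed in each mouse, an adjustment chosen after seeing the data, the fold changes of the 7 long genes against *db/m* mice became lower, and those values are given beside each gene below. The part of transcript length in these differences was not tested.

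**Figure D2:**
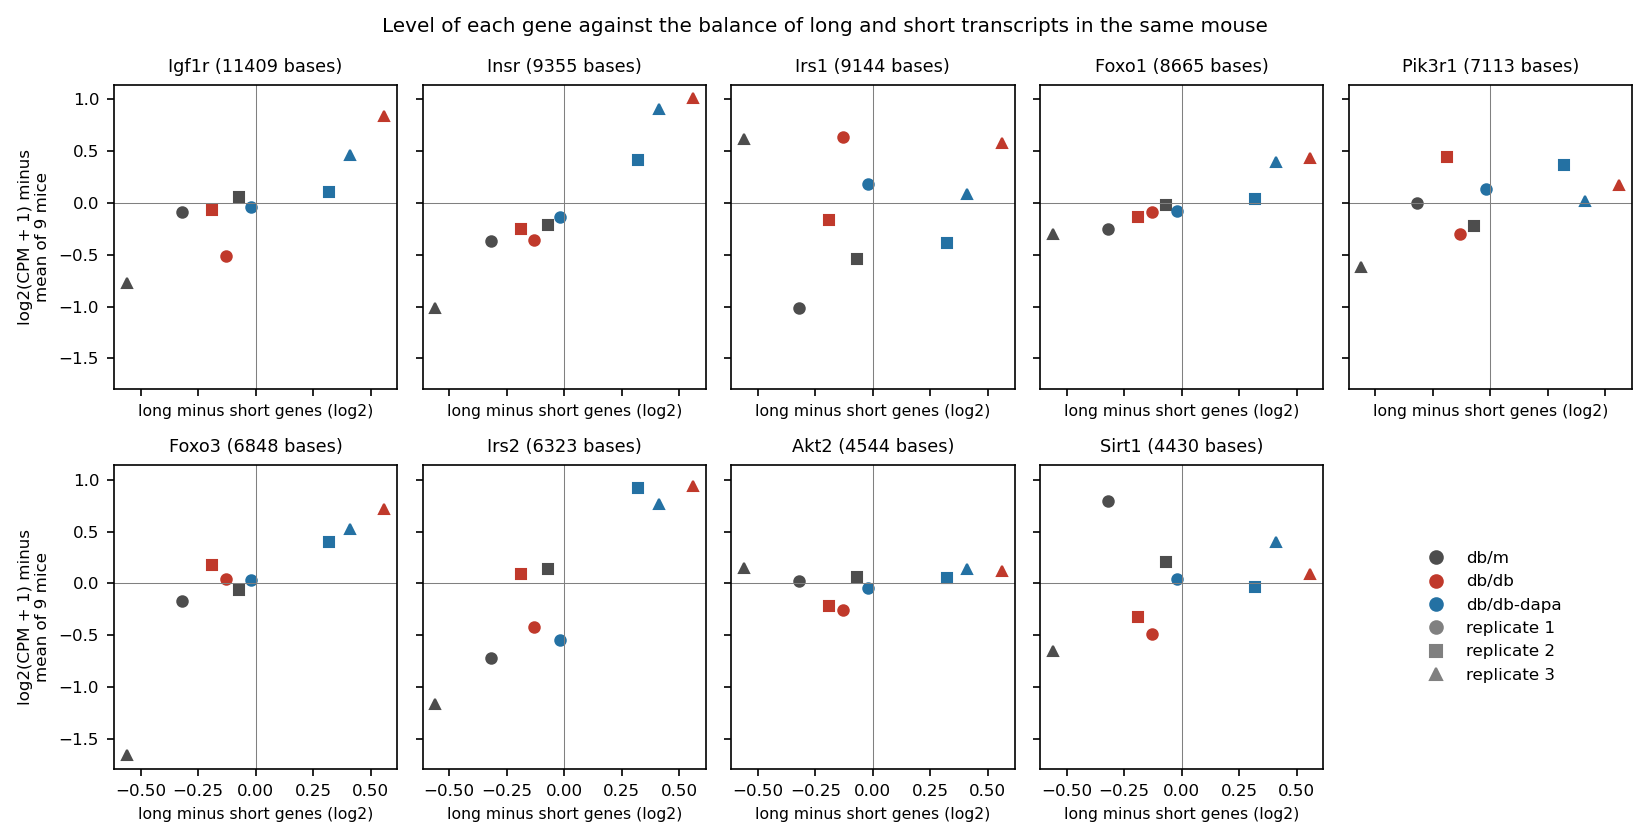
Each panel plots, for 1 gene and 9 mice, the log2(CPM + 1) minus its mean over mice (vertical axis) against the median log2 deviation of genes over 6000 bases minus that of genes under 2000 bases in the same mouse (horizontal axis); colors mark groups, and the length is that of the longest transcript. The mouse at -0.56 (*db/m* replicate 3) was the lowest and the mouse at 0.56 (*db/db* replicate 3) the highest for Insr, Igf1r, Irs2, Foxo1 and Foxo3, whereas Irs1, Pik3r1, Akt2 and Sirt1 did not have both of these extremes there.

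Insr (chromosome 8, 3122061 to 3279617, minus strand) encodes the insulin receptor. Its level was 69.9, 77.8 and 44.4 CPM in *db/m*, 70, 76 and 183 in *db/db*, and 81.9, 120 and 171 in *db/db*-dapa mice. All 3 *db/db*-dapa mice lay above all *db/m* mice, whereas 2 of the 3 *db/db* mice lay within the *db/m* range. The log2 fold change was 0.78 (SE 0.39, adjusted p = 0.4, edgeR) in *db/db* against *db/m*, 0.17 (SE 0.38, adjusted p = 0.94) in treated against untreated *db/db* mice, and 0.96 (SE 0.39, 95% interval 0.11 to 1.80, adjusted p = 0.241) in *db/db*-dapa against *db/m* mice. None of these passed the threshold. With the adjustment for transcript length the values were 0.38, 0.15 and 0.54. Before this adjustment the first value was 0.18 on leaving out *db/db* replicate 3. In the last comparison Insr passed the threshold when *db/db* replicate 3 was left out (adjusted p = 0.0647, 1 of 10 genes), or when only the 6 mice compared were fitted (adjusted p = 0.0873). Its log2 fold change stayed at 0.96 in both settings, and the mouse left out is not part of this comparison. Of all genes, 1647 of 15519 and 1486 of 15071 passed in these settings, against 204 of 15583 in the main fit.

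Igf1r (chromosome 7, 67952827 to 68233668, plus strand) encodes the IGF1 receptor, which shares its adaptors with the insulin receptor. Its level was 175, 194 and 108 CPM in *db/m*, 130, 176 and 334 in *db/db*, and 181, 200 and 256 in *db/db*-dapa mice, and the 3 groups overlapped. The log2 fold change was 0.43 (SE 0.33, adjusted p = 0.602), -0.01 (SE 0.33, adjusted p = 0.997) and 0.42 (SE 0.33, adjusted p = 0.492) in *db/db* against *db/m*, *db/db*-dapa against *db/db* and *db/db*-dapa against *db/m* mice, in edgeR's test. The interval for dapagliflozin was -0.73 to 0.71, so changes within that range are not excluded. With the adjustment for transcript length the 3 values were -0.016, -0.026 and -0.042, so the first and the last changed sign.

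Since both receptors are encoded by long transcripts, their counts were also compared within each mouse. The ratio of Insr to Igf1r counts was 0.401, 0.402 and 0.411 in *db/m*, 0.539, 0.431 and 0.549 in *db/db*, and 0.453, 0.603 and 0.668 in *db/db*-dapa mice. All 6 *db/db* mice, treated or not, lay above all 3 *db/m* mice. The exact two-sided permutation test gave p = 0.1 both for *db/db* (mean 0.506 ± 0.0657, SD, n = 3) and for *db/db*-dapa mice (0.575 ± 0.111) against *db/m* mice (0.404 ± 0.00546). This is the smallest p that 3 against 3 mice allow (0.225 after adjustment over 9 comparisons of ratios), so this pairwise test cannot reach 0.05. Between treated and untreated *db/db* mice the ratios overlapped (exact permutation p = 0.4). A ratio of this kind shows unequal levels of the pair, and not which of them moved.

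**Figure D3:**
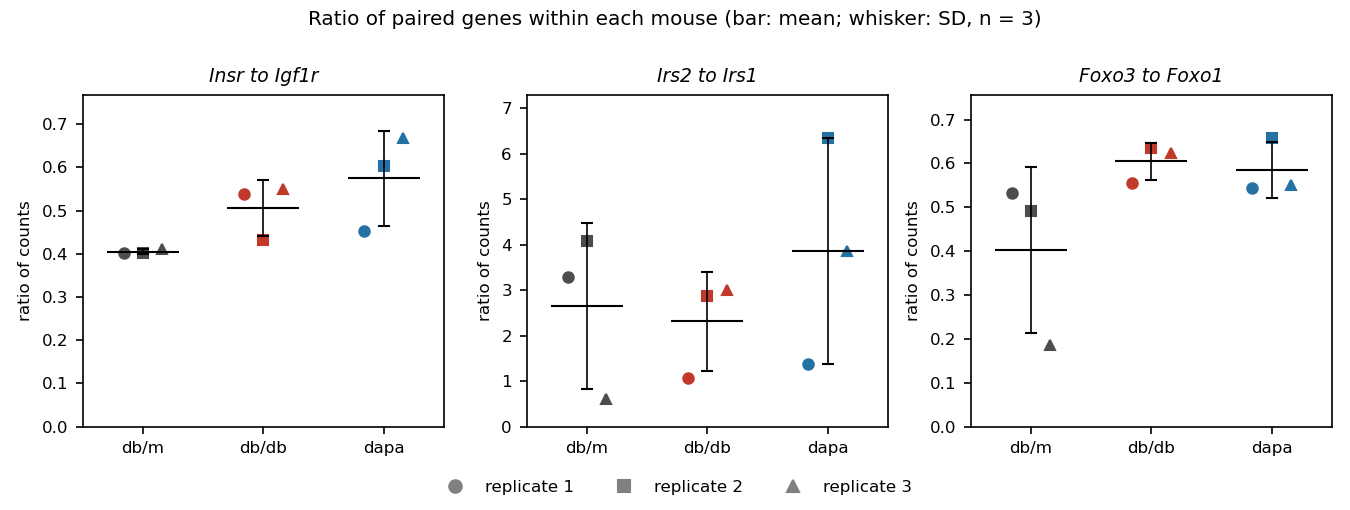
Ratio of the counts of paired genes within each mouse (vertical axes from 0, no unit), by group, for Insr to Igf1r, Irs2 to Irs1 and Foxo3 to Foxo1; symbols mark the replicate number, bars the mean and whiskers the SD (n = 3). The Insr to Igf1r ratio was 0.401 to 0.411 in *db/m* and 0.431 to 0.668 in the other 6 mice, Irs2 to Irs1 overlapped between groups, and Foxo3 to Foxo1 was lowest in *db/m* replicate 3 (0.186).

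The adaptors were expressed at low levels. Irs1 (chromosome 1, 82233101 to 82291416, minus strand) was at 2.99, 4.54 and 11.3 CPM in *db/m*, 11.6, 6.2 and 11 in *db/db*, and 8.09, 5.12 and 7.58 in *db/db*-dapa mice. The *db/m* mice spanned nearly the whole range of the other groups. Its log2 fold change was 0.63 (SE 0.46, adjusted p = 0.584), -0.46 (SE 0.45, adjusted p = 0.867) and 0.17 (SE 0.46, adjusted p = 0.866) in the 3 comparisons, in the same order and with edgeR's test, and 0.24, -0.49 and -0.26 with the adjustment for length. Before this adjustment the first value was 1.34 and the last 0.88 without *db/m* replicate 3, and 0.28 and -0.18 without *db/m* replicate 1. Summed counts of Irs1 were only 96, 152 and 163 per group, which limits the precision.

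Irs2 (chromosome 8, 10984681 to 11008458, minus strand), the adaptor that insulin represses through FOXO factors in liver, was at 9.76, 18.5 and 6.89 CPM in *db/m*, 12.2, 17.8 and 33.1 in *db/db*, and 11.1, 32.6 and 29.2 in *db/db*-dapa mice. At least 1 mouse of each diabetic group lay within the *db/m* range. The log2 fold change was 0.87 (SE 0.48, adjusted p = 0.457), 0.18 (SE 0.46, adjusted p = 0.952) and 1.04 (SE 0.47, adjusted p = 0.274, edgeR), and 0.63, 0.14 and 0.77 with the adjustment for length. Before this adjustment the first value was 0.36 on leaving out *db/db* replicate 3 and 1.36 on leaving out *db/m* replicate 2. The change of 2.06-fold in *db/db*-dapa against *db/m* mice was thus close to the spread between mice, with a 95% interval that starts at 0.00 on the log2 scale. The gene overlaps the start of 9530052E02Rik on the opposite strand, which is also in the table. The kit marks strand, but whether counting used it is not stated, so reads in that stretch are uncertain. The ratio of Irs2 to Irs1 counts was 3.29, 4.08 and 0.608 in *db/m*, 1.07, 2.87 and 3.01 in *db/db*, and 1.37, 6.35 and 3.86 in *db/db*-dapa mice, with overlap in every comparison (exact permutation p = 1, 0.4 and 0.6).

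Pik3r1 (chromosome 13, 101680563 to 101768217, minus strand) encodes the main regulatory subunit of phosphoinositide 3-kinase. Its level was 51.7, 44.1 and 33.1 CPM in *db/m*, 41.8, 70.4 and 58.2 in *db/db*, and 56.6, 66.8 and 52.4 in *db/db*-dapa mice. All *db/db*-dapa mice lay above all *db/m* mice, though the closest pair was 52.4 and 51.7. The log2 fold change was 0.41 (SE 0.23, adjusted p = 0.461), 0.04 (SE 0.22, adjusted p = 0.979) and 0.44 (SE 0.22, adjusted p = 0.309) with edgeR, and 0.17, -0.03 and 0.14 with the adjustment for length.

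Akt2 (chromosome 7, 27591552 to 27640826, plus strand), the AKT kinase most tied to insulin action, was at 93.4, 95.6 and 102 CPM in *db/m*, 76.5, 78.6 and 99.9 in *db/db*, and 88.9, 95.6 and 102 in *db/db*-dapa mice. The groups overlapped, and the spread was small. For Akt2 the log2 fold change was -0.19 (SE 0.16, adjusted p = 0.647), 0.16 (SE 0.16, adjusted p = 0.868) and -0.02 (SE 0.16, adjusted p = 0.949) with edgeR. Its 95% intervals were the narrowest of the 9 genes, at -0.54 to 0.17, -0.19 to 0.52 and -0.38 to 0.33, so a change of 1 log2 unit lay outside all 3 of them.

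Foxo1 (chromosome 3, 52268336 to 52353221, plus strand) was at 54.8, 64.4 and 52.7 CPM in *db/m*, 61.2, 59.2 and 88.2 in *db/db*, and 61.8, 66.8 and 86.5 in *db/db*-dapa mice, with overlap between all groups. Its log2 fold change was 0.28 (SE 0.21, adjusted p = 0.581), 0.04 (SE 0.20, adjusted p = 0.975) and 0.32 (SE 0.20, adjusted p = 0.398) with edgeR, and -0.048, -0.014 and -0.062 with the adjustment for length, so that all 3 changed sign. Both FOXO genes encode forkhead factors that insulin signalling keeps out of the nucleus.

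Foxo3 (chromosome 10, 42181841 to 42276755, minus strand) was at 29.1, 31.6 and 9.78 CPM in *db/m*, 34, 37.6 and 54.9 in *db/db*, and 33.6, 44 and 47.7 in *db/db*-dapa mice. It was the only 1 of the 10 genes for which all *db/db* mice, treated and untreated, lay above all *db/m* mice, with *db/m* replicate 3 far below the others. The log2 fold change was 0.84 (SE 0.36, 95% interval 0.06 to 1.62, adjusted p = 0.324) in *db/db* against *db/m*, -0.02 (SE 0.35, adjusted p = 0.995) in treated against untreated *db/db* mice, and 0.82 (SE 0.35, adjusted p = 0.259) in *db/db*-dapa against *db/m* mice, and 0.60, -0.068 and 0.53 with the adjustment for length. Before this adjustment the first and the last values were 0.48 and 0.46 without *db/m* replicate 3. The ratio of Foxo3 to Foxo1 counts was 0.532, 0.491 and 0.186 in *db/m*, 0.556, 0.635 and 0.623 in *db/db*, and 0.545, 0.658 and 0.552 in *db/db*-dapa mice. Again all 6 *db/db* mice lay above all *db/m* mice (exact permutation p = 0.1, the smallest possible), but *db/m* replicate 1, at 0.532, was close to the lowest of them.

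Sirt1 (chromosome 10, 63319005 to 63381704, minus strand) was at 88, 58.5 and 31.8 CPM in *db/m*, 35.7, 40 and 53.7 in *db/db*, and 52, 49 and 66.9 in *db/db*-dapa mice. The *db/m* mice alone spanned the full range of the gene, and the other groups lay within it. It had a log2 fold change of -0.46 (SE 0.31, adjusted p = 0.558), 0.37 (SE 0.31, adjusted p = 0.854) and -0.09 (SE 0.31, adjusted p = 0.893) with edgeR. The first value was -0.06 without *db/m* replicate 1. With the adjustment for length the values were -0.56, 0.34 and -0.22.

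**Figure D4:**
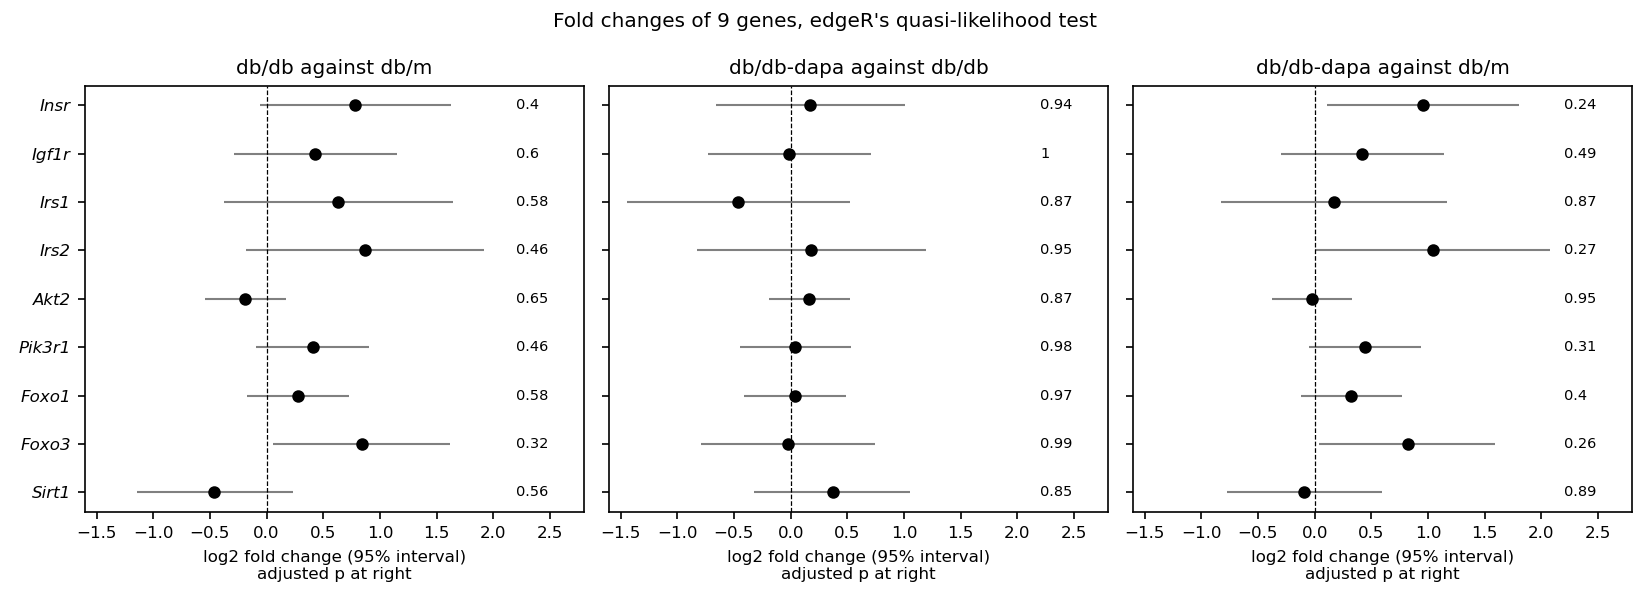
Log2 fold change (points) with its 95% interval (lines) from edgeR's quasi-likelihood test for 9 genes in 3 comparisons, with the Benjamini-Hochberg adjusted p over 15583 genes at the right of each row; Lepr is left out for its low counts. Values for *db/db*-dapa against *db/db* (middle) lay between -0.46 and 0.37, and every interval there contains 0.

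The genes around these 10 were examined in 5 lists. Of 14 tested genes of leptin receptor signalling, 0 passed the adjusted threshold in any comparison, and the same held for 38 genes of insulin and IGF1 receptor signalling, 16 sirtuin and NAD supply genes and 23 AMPK genes. Of 24 FOXO family and FOXO target genes, 2 were higher (0.802% of all genes tested) in *db/db* than in *db/m* mice, 0 differed between *db/db*-dapa and *db/db*, and 1 was higher (0.751% of all genes) in *db/db*-dapa than in *db/m* mice. The median log2 fold changes of the FOXO list were 0.10, 0.03 and 0.28 in the 3 comparisons. Those of the leptin list were 0.11, -0.07 and 0.18, of the insulin and IGF1 list 0.17, 0.02 and 0.05, of the sirtuin and NAD list 0.05, 0.00 and 0.01, and of the AMPK list 0.27, 0.11 and 0.22. Of the AMPK list, 18 of 23 genes lay above 0 in *db/db* against *db/m* mice. This stands beside 51.6% of all genes tested. The longest transcripts of this list ran from 1652 bases (Prkag1) to 10265 bases (Crtc1). The 77.1% of genes over 6000 bases that lay above 0 is thus not a matched share for it. The counts were 9 of 14 for the leptin list, 25 of 38 for insulin and IGF1, 15 of 24 for FOXO and 10 of 16 for sirtuin and NAD. The part of transcript length in these counts was not tested.

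The genes that passed were Igfbp1 and Txnip. Igfbp1 encodes a secreted IGF-binding protein whose transcription insulin represses through FOXO1, and it carries the insulin response element shown above. It was at 4.88, 6.81 and 2.22 CPM in *db/m*, 7.82, 20.8 and 22.7 in *db/db*, and 26, 19.8 and 30.3 in *db/db*-dapa mice. All 6 *db/db* mice lay above all *db/m* mice. It rose 3.71-fold in *db/db* (log2 1.89, SE 0.43, adjusted p = 0.0763, edgeR) and 5.37-fold in *db/db*-dapa mice (log2 2.42, SE 0.42, adjusted p = 0.0397) against *db/m*, and between treated and untreated *db/db* mice the log2 fold change was 0.53 (SE 0.38, adjusted p = 0.854). With the adjustment for length the first values were 2.05 and 2.63. The call in *db/db* against *db/m* mice was lost on leaving out *db/m* replicate 1 or 3, *db/db* replicate 2 or 3, or *db/db*-dapa replicate 2 or 3 (adjusted p = 0.259, 0.192, 0.16, 0.134, 0.128 and 0.117), and that in *db/db*-dapa against *db/m* mice on leaving out *db/m* replicate 1 or 3 or *db/db*-dapa replicate 2 or 3 (0.176, 0.146, 0.124 and 0.166).

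Txnip encodes a binding partner of thioredoxin that is induced by glucose and lowers glucose uptake. It was at 170, 121 and 157 CPM in *db/m*, 238, 313 and 319 in *db/db*, and 175, 166 and 209 in *db/db*-dapa mice. All *db/db* mice lay above all mice of the other groups. It rose 1.94-fold in *db/db* against *db/m* mice (log2 0.96, SE 0.19, adjusted p = 0.046, edgeR), and the log2 fold change was -0.66 (SE 0.19, adjusted p = 0.854) in *db/db*-dapa against *db/db* and 0.30 (SE 0.19, adjusted p = 0.405) in *db/db*-dapa against *db/m* mice. The middle value had an unadjusted p of 0.00543 (edgeR). No gene of the whole table passed the adjusted threshold in that comparison, where 809 genes had an unadjusted p under 0.05 and DESeq2 called 21. The study itself did report differentially expressed genes there with edgeR, by its rule on adjusted p and fold change. The absence of calls here thus differs from the study. The call in *db/db* against *db/m* mice was lost on leaving out any 1 of the *db/m* mice or *db/db* replicate 2 (adjusted p = 0.123, 0.165, 0.119 and 0.133).

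Of the 24 tested genes of this list, 7 were higher and 0 lower without overlap in *db/db* than in *db/m* mice. Of all genes, 8.28% were higher without overlap there and 16.4% did not overlap in either direction. In *db/db*-dapa against *db/m* mice, 10 of the 24 were higher and 2 lower, beside 14.4% higher and 28.1% in either direction. In the first of these comparisons 9 of the 24 had a log2 fold change below 0. The following 4 genes, 2 with higher and 2 with lower values, were chosen after their values were seen, and none passed the threshold. Pdk4, which encodes a kinase that inhibits pyruvate dehydrogenase, was at 13.1, 23 and 17.8 CPM in *db/m*, 26.2, 246 and 47.1 in *db/db*, and 57.1, 85.1 and 53.5 in *db/db*-dapa mice. All *db/db* mice lay above all *db/m* mice, with *db/db* replicate 2 far above the rest, and the log2 fold changes against *db/m* were 2.57 (SE 0.67, adjusted p = 0.114, edgeR) and 1.86 (SE 0.65, adjusted p = 0.208). G6pc, the last enzyme of gluconeogenesis, was at 365, 272 and 371 CPM in *db/m*, 547, 435 and 825 in *db/db*, and 502, 697 and 861 in *db/db*-dapa mice. It did not overlap either, and its log2 fold changes were 0.84 (SE 0.27, adjusted p = 0.205) and 1.03 (SE 0.27, adjusted p = 0.122). Trib1, which encodes a pseudokinase, was at 80.6, 69.1 and 48.9 CPM in *db/m*, 35, 58.2 and 24.9 in *db/db*, and 45.9, 44.4 and 31.3 in *db/db*-dapa mice (log2 fold changes -0.76, adjusted p = 0.301, and -0.71, adjusted p = 0.254). Bcl6, which encodes a transcriptional repressor, varied widely in *db/m* mice, at 147, 19.5 and 36.2 CPM, and was at 40.8, 32.2 and 23.6 in *db/db* and 69.1, 50 and 66.4 in *db/db*-dapa mice (log2 fold changes -1.09, adjusted p = 0.425, and -0.13, adjusted p = 0.911).

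In the other lists the gene with the smallest p did not pass with edgeR. In *db/db* against *db/m* mice these were Tyk2, a JAK family kinase (log2 fold change 0.53, adjusted p = 0.238), Inppl1, a phosphatase of the lipid made by phosphoinositide 3-kinase (0.41, 0.293), Ccar2, an inhibitor of SIRT1 (0.62, 0.139), and Ulk1, the kinase that starts autophagy and is phosphorylated by AMPK (0.59, 0.178). With DESeq2, Ccar2 and Ulk1 passed (adjusted p = 0.0351 and 0.0443). Of the 91 tested genes of these 4 lists, 8 were higher and 3 lower without overlap in *db/db* than in *db/m* mice. The 8 are close to the share over all genes, of which 8.28% were higher and 16.4% did not overlap in either direction. These 4 genes were among the 8, but they were picked by their p in the same mice, so nothing is read from this count. Ccar2, for example, was at 30.2, 29.1 and 32.9 CPM in *db/m* and 46.2, 46.2 and 49 in *db/db* mice, and at 34.4, 48.3 and 39.9 in *db/db*-dapa mice. Ulk1 was at 76.4, 94.7 and 68.4 CPM in *db/m*, 132, 108 and 122 in *db/db*, and 81.5, 98.7 and 99.4 in *db/db*-dapa mice. Between treated and untreated *db/db* mice, 10 of the 115 tested genes of the 5 lists were lower and 4 higher without overlap in treated mice. Of all genes, 5.29% were lower without overlap and 10.2% did not overlap in either direction. Tyk2, Ulk1 and Txnip were among the 10.

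In *db/db*-dapa against *db/m* mice, Prkag2, which encodes a regulatory subunit of AMPK, was nearest to the threshold. It was at 45.4, 51.3 and 40.9 CPM in *db/m*, 56.8, 51.2 and 65.4 in *db/db*, and 64.7, 79 and 85.2 in *db/db*-dapa mice. All *db/db*-dapa mice lay above all *db/m* mice, and the log2 fold change was 0.73 (SE 0.18, adjusted p = 0.106, edgeR; 0.00775 with DESeq2). In the same comparison 2 genes of the SOCS family, whose proteins dampen JAK signalling, had the smallest p of their lists at low or variable levels: Cish (log2 fold change -1.23, SE 0.41, adjusted p = 0.2) and Socs1 (-2.02, SE 0.62, adjusted p = 0.172). Cish was at 25.5, 71.7 and 30.2 CPM in *db/m* and 18.2, 22.6 and 13.6 in *db/db*-dapa mice, and its value was -0.62 without *db/m* replicate 2. Socs1 was at 2.83, 2.44 and 4.22 against 0.568, 0.919 and 0.792 CPM. With DESeq2 both passed (adjusted p = 0.0783 for Cish and 0.0639 for Socs1). Socs3, another member of the family, had a log2 fold change of 0.31 (SE 0.52, adjusted p = 0.77, edgeR). SOCS genes are also expressed in leukocytes, and leukocyte markers summed to 218 to 501 CPM in *db/m* and 102 to 330 in *db/db*-dapa mice. The part of such cells was not tested. In treated against untreated *db/db* mice the smallest p in the insulin and IGF1 list was that of Pik3cd, the leukocyte-enriched form of the phosphoinositide 3-kinase catalytic subunit (log2 fold change -1.59, adjusted p = 0.854), and in the sirtuin and NAD list that of Nmnat1, an enzyme of NAD synthesis (0.40, adjusted p = 0.854).

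**Figure D5:**
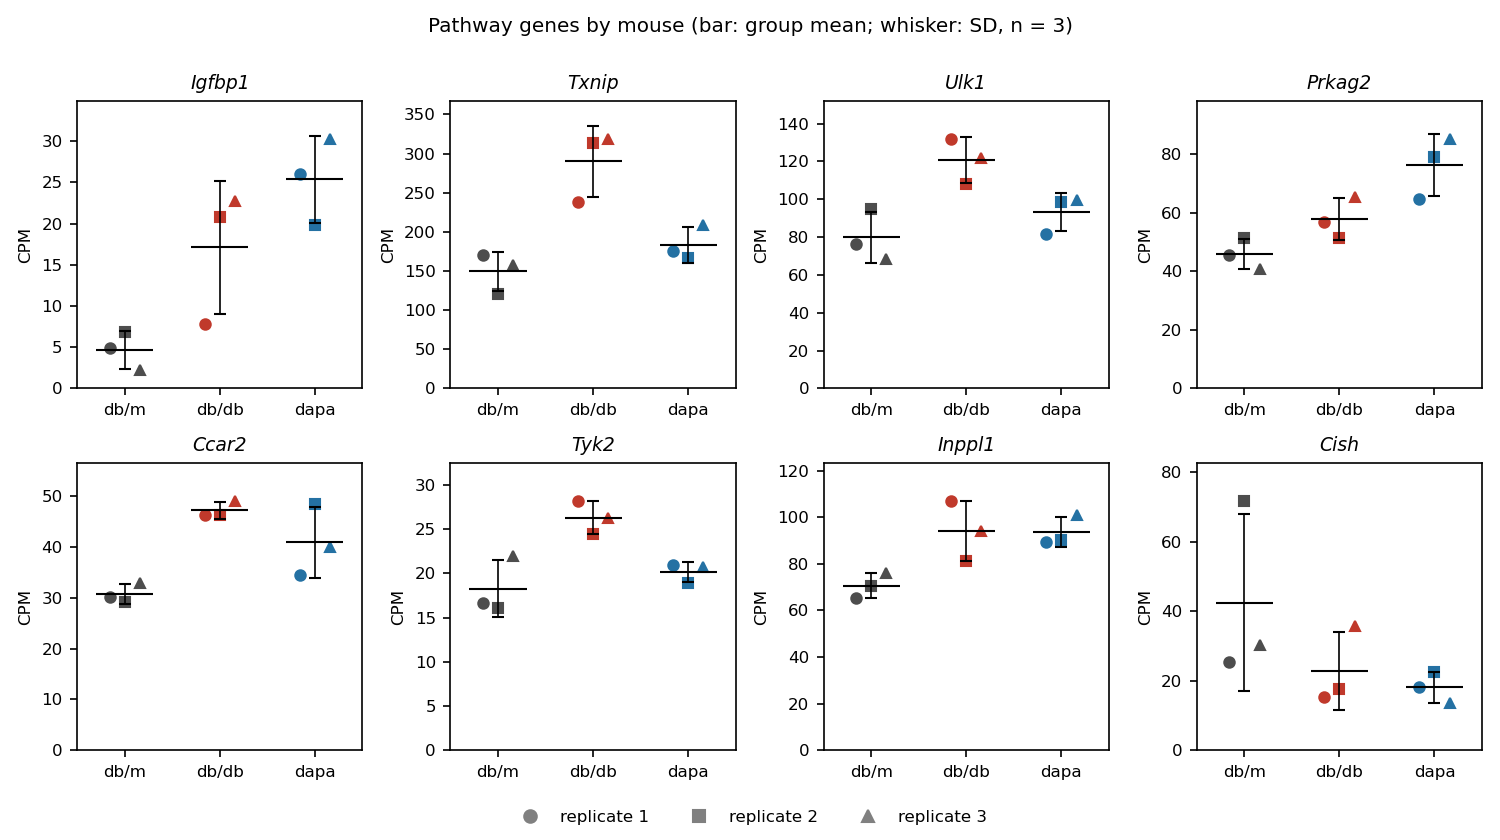
Level in CPM (vertical axes from 0) of 8 genes of the surrounding pathways in each mouse, by group; symbols mark the replicate number, bars the mean and whiskers the SD (n = 3). Igfbp1 was at most 6.81 in *db/m* and at least 7.82 in the other mice, Txnip was 238 to 319 in *db/db* and 121 to 209 in the other 6 mice, and the other 6 genes did not pass the adjusted threshold.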

How the data were processed

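Stranded poly(A) libraries of sorted cells from 9 mice, 3 in each group, were sequenced single-end. Per the submitters' processing notes and the study's methods, the authors mapped reads to mm10 with TopHat2 2.0.13, Bowtie2 2.2.3 and SAMtools 0.1.19 and calculated FPKM with Cufflinks 2.2.1. The table deposited under the name FPKM holds estimated counts (85.9% of non-zero entries are whole, and totals run from 2733349 to 9033123). How these were made is not given in the sources used here. There were 0 unused sample columns.

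Values were rounded to whole numbers and scaled by TMM. Genes at or above 0.3 CPM in at least 2 of 9 mice were fitted with edgeR 4.0.16 (quasi-likelihood test, earlier form, R 4.3.3), the study's tool, with all mice in 1 fit and Benjamini-Hochberg adjustment. Calls were made at an adjusted p under 0.1. The study's further rule of an absolute log2 fold change over 1 was not applied to the counts given. SE was derived from the F value, and a level at or under 3 summed counts was not read. Ratios were compared by exact, two-sided permutation tests. Alternatives were other scalings and filters, DESeq2 1.42.0, limma 3.58.1 on log2(CPM + 1) and log2(CPM + 0.1), voom with quality weights, the replicate block, fewer mice and, chosen after seeing the data, an offset for transcript length and the newer form of the quasi-likelihood test.

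The genes, lists and tests were chosen with earlier results of these data known. Genes outside the 10 were named by a rule: in each list and comparison up to 3 of smallest adjusted p among those that passed, otherwise the 1 of smallest p. Pdk4, G6pc, Trib1, Bcl6, Socs3 and the marker Slc7a13 were outside this rule and were named after their values were seen. Pck1 was outside it too and is named only for its promoter. Positions and lengths are those of GENCODE's GRCm38 annotation. Labels name the tissue as kidney, and sorting follows the study's methods. Replicates were taken as separate mice.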

Additional observations from a re-analysis of the deposited data

How the results depend on the processing

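Of the 10 genes, 0 passed the adjusted threshold of 0.1 in *db/db* against *db/m* and in treated against untreated *db/db* mice under every alternative run. In *db/db*-dapa against *db/m* mice 3 passed with voom and quality weights (Insr, Irs2 and Foxo3) and 1 when only the 6 mice of these groups were fitted (Insr), and leaving out 1 mouse gave 0 to 1 (Insr, without *db/db* replicate 3). Over all genes the number called in the 3 comparisons was 265, 0 and 204, against 797, 21 and 996 with DESeq2, 439, 899 and 4883 with voom and quality weights, 116, 0 and 1486 with only the 6 mice compared, and 323, 0 and 368 without a filter. Without *db/db* replicate 3 it was 303, 419 and 1647, and leaving out *db/db*-dapa replicate 2 gave 155, 1 and 14. Correlations between groups ran from -0.32 to 0.56 for same-numbered mice and from -0.61 to 0.36 for different-numbered mice. These ranges overlap, so they do not settle whether replicate numbers pair the mice. With the replicate block 0 of the 10 genes passed in each comparison and 222, 0 and 187 of all genes. Under the block the call of Igfbp1 in *db/db* against *db/m* mice was lost (adjusted p = 0.134); it was also lost with limma on log2(CPM + 1) (0.113) and log2(CPM + 0.1) (0.104), with voom (0.121) and with only 6 mice (0.176), and that of Txnip with only 6 mice (0.141). In *db/db*-dapa against *db/m* mice Prkag2, Cish and Socs1 passed with DESeq2 (0.00775, 0.0783 and 0.0639), voom (0.00458, 0.0676 and 0.0165) and only 6 mice (0.0463, 0.0926 and 0.0555), and Ccar2 with voom (0.0225). In *db/db* against *db/m* mice Ccar2 and Ulk1 passed with DESeq2, and between treated and untreated *db/db* mice Prkag2, Txnip and Pik3cd with voom (0.098, 0.0914 and 0.0855).

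The sign of small log2 fold changes depended on the setting. In *db/db* against *db/m* mice Igf1r was -0.016 with voom and -0.016 with the length offset, and Foxo1 was -0.048 with the latter. In treated against untreated *db/db* mice, Igf1r was 0.091 and 0.092 with limma, 0.33 with voom and 0.036 with the replicate block. There Foxo3 was 0.0023 and 0.0026 with limma and 0.17 with voom, and Pik3r1 and Foxo1 were -0.023 and -0.022 with upper-quartile scaling and -0.03 and -0.014 with the length offset. In *db/db*-dapa against *db/m* mice Igf1r, Irs1 and Foxo1 were -0.042, -0.26 and -0.062 with the length offset, Akt2 was 0.01 with voom, and Sirt1 was 0.017 and 0.019 with limma. Leaving out 1 mouse gave ranges that cross 0 for Igf1r (-0.058 to 0.68) in *db/db* against *db/m* mice. In treated against untreated *db/db* mice the ranges were -0.11 to 0.78 for Insr, -0.27 to 0.48 for Igf1r, -0.084 to 0.69 for Irs2, -0.13 to 0.22 for Pik3r1, -0.10 to 0.27 for Foxo1 and -0.15 to 0.23 for Foxo3. In *db/db*-dapa against *db/m* mice they were -0.18 to 0.88 for Irs1, -0.061 to 0.029 for Akt2 and -0.39 to 0.30 for Sirt1. The causes were not tested. Where a group kept 2 mice, the fit pooled the spread over groups. Lepr, with 10.5 counts in all mice, could not be compared at this depth.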
